A study of Homo sapiens with 4 samples.

Results

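The pyruvate dehydrogenase kinases PDK1, PDK2, PDK3 and PDK4 were followed through the H3K27ac profile of A375, an established human BRAF-mutant melanoma cell line. H3K27ac is an acetylated form of histone H3 found at active promoters and enhancers, measured here by chromatin immunoprecipitation and sequencing. Members were all regions of the authors' deposited table assigned to 1 of the 4 genes. There were 25 of them among 91107 distinct regions: 13 for PDK4, 5 for PDK3, 4 for PDK1 and 3 for PDK2. Per the labels, 2 libraries are of cells that received 1 mM octanoate, which is a fatty acid of medium chain length, for 48 hours, and 2 are of cells that received its vehicle, isopropanol, for the same 48 hours. All 4 libraries used the same line, medium and antibody, and the labels do not say whether the libraries of a group came from separate cultures, so the p-values measure only the spread between these libraries.

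These kinases sit at the gate between glycolysis and the mitochondrial acetyl-CoA pool. The pyruvate dehydrogenase complex turns pyruvate into acetyl-CoA. The kinases phosphorylate its E1 alpha subunit and switch it off, and dedicated phosphatases switch it on again. PDK4 is the family member best known as a target of fatty acids and fasting, through PPAR nuclear receptors, forkhead factors and estrogen-related receptors, chiefly in heart, skeletal muscle and liver. PDK1 is known as a target of hypoxia-inducible factor, PDK2 is the broadly expressed member, and PDK3 is the X-linked one. In BRAF-mutant melanocytic cells the balance of kinase and phosphatase is known for its part in oncogene-induced senescence.

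The values are those of 1 comparison made by the authors, which gives each region a mean level over the libraries, a log2 fold change with its standard error, a p-value and an adjusted p-value. It gives no library its own value, so the depth of each library is unknown and per-sample values cannot be shown. The table does not name the numerator of the fold change, so signs are reported as positive or negative and not as gain or loss under octanoate. Adjusted p-values exist for 36436 regions of the authors' deposited table. They had a median log2 fold change of 0.32 and 87.3% of them were positive, which is the level against which the PDK regions were read. A further 54671 regions of the authors' deposited table, none with a mean level above 18.4, carried an adjusted p-value of 1 and were taken as not tested. As a check of the cell label, 6 of 9 melanoma and neural crest marker genes had a region at their start by the authors' deposited table. Their levels there ran from 15.1 to 41.2 per kb, with SOX10 the highest, while MLANA, TYR and DCT had no region at their start. Of 8 markers of leukocytes, epithelium, endothelium and hepatocytes, EPCAM and KRT8 had one by the authors' deposited table, at 19.4 and 31.5 per kb. The levels of these and of the melanoma markers thus overlapped.

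All 4 genes carried H3K27ac over their starts, and the sequences under those marked starts are shown because the start regions are where the 4 genes can be compared like with like. Each is the RefSeq window (GRCh38.p14) from 250 bases before to 50 bases after a start that lies wholly inside the gene's start region and nearest the start the authors' distances point to. Capitals mark the motif letters searched on both strands: the GC box GGGCGG, the hypoxia response core as ACGTG or GCGTG, the forkhead motif GTAAACA, the estrogen-related receptor motif AAGGTCA, and the PPAR and RXR direct repeat, which is AGGTCA given a second time after 1 base of spacing. The PDK4 window is chr7:95596467-95596766 on the minus strand, and those of PDK1, PDK2 and PDK3 are chr2:172555840-172556139, chr17:50095101-50095400 and chrX:24465036-24465335 on the plus strand.
PDK4: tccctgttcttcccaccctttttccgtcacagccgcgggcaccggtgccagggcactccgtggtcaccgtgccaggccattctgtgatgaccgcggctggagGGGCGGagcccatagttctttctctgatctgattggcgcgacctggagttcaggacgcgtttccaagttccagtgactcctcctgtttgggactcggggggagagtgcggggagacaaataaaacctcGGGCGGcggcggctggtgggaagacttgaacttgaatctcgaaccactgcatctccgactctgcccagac
PDK1: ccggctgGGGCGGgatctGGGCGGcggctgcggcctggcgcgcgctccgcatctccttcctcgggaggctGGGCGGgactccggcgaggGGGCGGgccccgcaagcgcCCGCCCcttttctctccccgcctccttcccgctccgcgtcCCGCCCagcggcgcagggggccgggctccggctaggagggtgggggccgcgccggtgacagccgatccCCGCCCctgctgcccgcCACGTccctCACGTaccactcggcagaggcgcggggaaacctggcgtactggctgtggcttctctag
PDK2: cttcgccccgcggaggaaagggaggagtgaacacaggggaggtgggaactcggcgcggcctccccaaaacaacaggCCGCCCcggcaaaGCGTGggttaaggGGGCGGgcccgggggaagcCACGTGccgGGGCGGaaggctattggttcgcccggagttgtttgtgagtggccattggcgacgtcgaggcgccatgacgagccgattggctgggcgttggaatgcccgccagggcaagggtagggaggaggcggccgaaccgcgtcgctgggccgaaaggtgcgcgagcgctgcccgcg
PDK3: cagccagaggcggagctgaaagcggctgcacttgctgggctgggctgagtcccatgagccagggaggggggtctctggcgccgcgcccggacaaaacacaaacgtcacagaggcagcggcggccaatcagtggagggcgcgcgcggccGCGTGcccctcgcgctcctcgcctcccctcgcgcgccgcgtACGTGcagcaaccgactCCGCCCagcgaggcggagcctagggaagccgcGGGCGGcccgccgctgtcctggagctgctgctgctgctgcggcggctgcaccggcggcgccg

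The windows printed differed in composition. PDK4 had 21 CpG dinucleotides and a GC content of 60.7%, against 38 and 77% for PDK1, 35 and 69.7% for PDK2, and 39 and 74.3% for PDK3. The median over 35116 RefSeq windows of the same length was 14 CpG and 58.7% GC. GC boxes, the letters bound by Sp1-type factors, numbered 2 in the PDK4 window, 7 in PDK1, 3 in PDK2 and 2 in PDK3, and 45% of all windows held at least 1. The hypoxia core as ACGTG was absent from the PDK4 window. It matched at 2 places in PDK1 and at 1 in PDK3, and the PDK2 window gave 2 matches that overlap in the palindrome CACGTG. Among all windows, 21.4% held ACGTG. The GCGTG form matched at 1 place each in PDK2 and PDK3, and in 36.5% of all windows. None of the 4 windows held the forkhead, estrogen-related receptor or direct repeat letters, which occurred in 3.42%, 3.92% and 0.0228% of all windows. These are matches of letters within 300 bases and not observed binding. PDK1 and PDK2 also have other RefSeq starts. A PDK1 window 36.3% in GC and with 6 CpG lay inside the same marked region, at chr2:172555123-172555422. A PDK2 window with 20 CpG and 65% GC, at chr17:50095445-50095744, also lay inside the marked region of its gene. The PDK2 window at the start the authors' distances point to, chr17:50094487-50094786, reached beyond that region and had 12 CpG and 51.3% GC. PDK4 was thus not poorer in CpG than every window of PDK1 and PDK2, and the mark cannot be assigned to 1 of the starts.

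The start region of PDK4, the fatty-acid-responsive member, had the largest fold change of the 4 starts. It spanned chromosome 7, 95595007 to 95597589, as the authors' deposited table gives it. By the authors' deposited table, its log2 fold change was 0.83 ± 0.27 (standard error), a ratio of 1.78, at a mean level of 62.3. That value exceeded 96.7% of the 9996 tested start regions of the authors' deposited table. The authors' deposited table gave it an unadjusted p-value of 0.00188, which became 0.0742 on adjustment, so the PDK4 start was not called at 0.05. Measured from the median of all tested regions it stood at 0.50, with an unadjusted p-value of 0.0582. The region also covers the RefSeq start of PDK4-AS1, an antisense non-coding gene that runs the other way, and the mark carries no strand to tell the genes apart.

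The 3 paralog starts spread around 0.35, the median log2 fold change of all tested starts. The PDK3 start (chromosome X, 24464539 to 24466202) reached 0.68 ± 0.35 (standard error) on the log2 scale by the authors' deposited table, with p-values of 0.0503 before and 0.272 after adjustment. The PDK1 start (chromosome 2, 172554944 to 172558795), which also overlaps the antisense gene PDK1-AS1, had 0.45 ± 0.28 and an adjusted p-value of 0.345 by the authors' deposited table. For the PDK2 start (chromosome 17, 50094514 to 50096418) the authors' deposited table gave 0.29 ± 0.29 and 0.546. The PDK2 start region also overlaps LOC124904024, which RefSeq does not list as protein-coding. PDK3 exceeded 92.3%, PDK1 69.9% and PDK2 35% of tested start regions in log2 fold change. These shares, and that of PDK4, are over starts of all levels pooled. The PDK3 start was weak, with a mean level of 32.6 by the authors' deposited table beside a median of 87.8 over tested starts, and its standard error of 0.35 was above their median of 0.25. None of the 4 was called by the authors' deposited table, where 0.86% of tested start regions were.

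**Figure D1:**
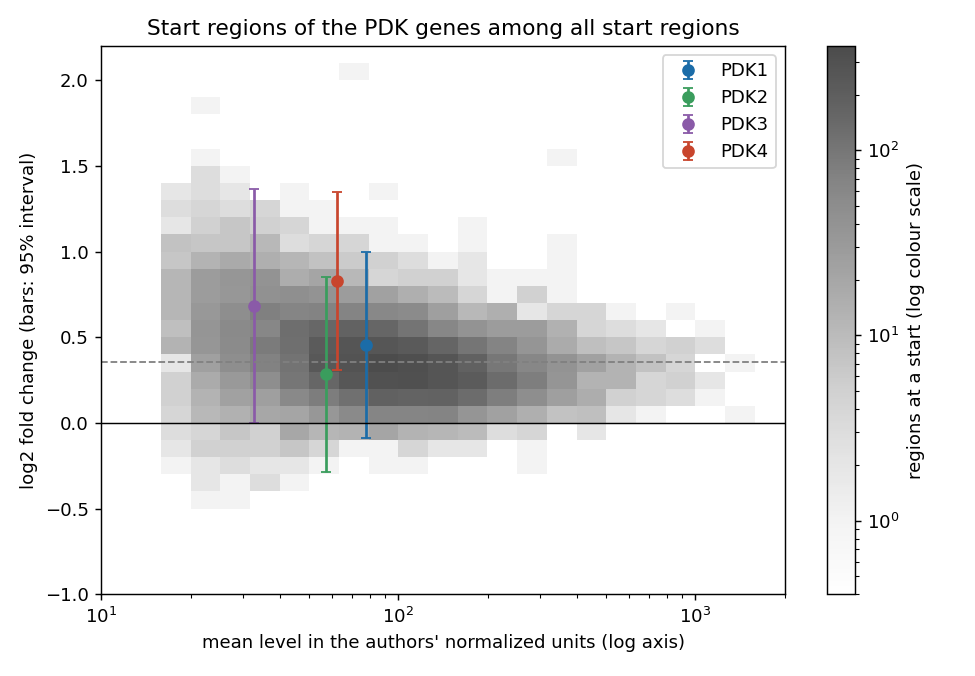
Log2 fold change of the 4 PDK start regions (coloured points with 95% intervals from the authors' standard errors) against mean level on a log axis, over all 9996 tested start regions (grey, darker where more regions fall). The dashed line is the median of start regions, 0.35. The PDK4 point lies at 0.83 with an interval that stays above 0, and the other 3 intervals reach 0 or below. All 4 intervals include the dashed line.

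In amount of mark per length the order of the starts was another one. The mean level per kb of region was 29.9 at the PDK2 start, 24.1 at PDK4, 20.1 at PDK1 and 19.6 at PDK3 by the authors' deposited table, beside a median of 25.8 per kb over all tested start regions. The PDK2 start, the densest of the 4, exceeded 69.0% of tested start regions, and PDK4 40.6%, PDK1 20.5% and PDK3 18%. The PDK3 start was also narrow, at 1663 bases against a median of 3316.5 bases over tested starts. The table gives no spread between libraries for these levels, so the error of their order is unknown.

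Away from the starts, PDK4 had the most regions of the family. The authors assigned it 12 such regions, 6 of them tested, and its total of 13 exceeded that of 89.6% of the 17301 genes by the authors' deposited table, where the median was 3. The strongest lay 10.2 kb upstream of the start (chromosome 7, 95606721 to 95612252), overlapping PDK4-AS1. With a mean level of 154 and 27.9 per kb it exceeded 91.8% of tested regions not at a start in level per kb, and over its 5531 bases it held 2.48 times the level of the PDK4 start by the authors' deposited table. Its log2 fold change was 0.56 ± 0.22 (standard error), with p-values of 0.00922 before and 0.150 after adjustment by the authors' deposited table. The region farthest upstream, 86.3 kb away (chromosome 7, 95682763 to 95685249), had 0.76 ± 0.35 by the authors' deposited table. Its adjusted p-value was 0.227 and its mean level 28.8 by the authors' deposited table. It overlaps LOC105375409, which RefSeq does not list as protein-coding.

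On the other side of the PDK4 start the 4 tested regions ran from 0.25 to 0.57 in log2 fold change, around and somewhat above the general median of 0.32. Inside the gene, 5.4 kb downstream of the start, the region at 95588562 to 95591090 had a log2 fold change of 0.34 ± 0.33 (standard error) by the authors' deposited table. Beyond its 3' end, 17.6 kb from the start, the region at 95577471 to 95578892 had 0.57 ± 0.38 by the authors' deposited table. The regions 45.2 and 49.6 kb downstream (95548959 to 95551287 and 95544902 to 95546915) had 0.25 ± 0.28 and 0.40 ± 0.31 by the authors' deposited table. These last 2, and a weak untested one 48.1 kb downstream, lie within the RefSeq span of ASB4, a gene of the ankyrin repeat and SOCS box family. The table measures their distance to the PDK4 start, and the assignment shows nothing about regulation. Adjusted p-values of these 4 tested downstream regions ran from 0.380 to 0.589 by the authors' deposited table.

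The 1 called region of the family was assigned to PDK1, the hypoxia-responsive member. It was a wide domain of 10511 bases (chromosome 2, 172637603 to 172648114), 81.6 kb downstream of the start, within the PDK1 span of RefSeq, whose record also counts predicted transcripts. By the authors' deposited table, this domain had a log2 fold change of 0.89 ± 0.22 (standard error), a ratio of 1.85, with p-values of 7.34e-05 before and 0.0146 after adjustment. The mean level was 139 by the authors' deposited table, 1.80 times that of the PDK1 start, spread thinly at 13.3 per kb. In width it exceeded 98.1% and in log2 fold change 96.0% of tested regions not at a start. With the fold changes centred on the median of all tested regions, it stood 0.57 above that median, and its Benjamini-Hochberg adjusted p-value from the authors' standard error was 0.563. Called regions made up 1.67% of all tested regions of the authors' deposited table and 1.97% of those not at a start, beside 1 of 14 tested PDK regions. The PDK4 start, which was not called, had a similar 0.83 ± 0.27 and an adjusted p-value of 0.0742 by the authors' deposited table. The assignment of the domain to PDK1 shows nothing about regulation.

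The PDK1 domain had a called neighbour. Starting 5.0 kb further along (chromosome 2, 172653123 to 172657430), a region assigned to RAPGEF4, an exchange factor for the small GTPase Rap, reached 1.08 ± 0.26 (standard error) on the log2 scale, with 0.01004 as its adjusted p-value by the authors' deposited table. It too lies inside the RefSeq span of PDK1, and ends 77888 bases before the RefSeq start of RAPGEF4. The fold changes of the 2 regions differed by 0.19 (95% interval -0.49 to 0.86, two-sided normal p = 0.586 from the authors' standard errors). This comparison was not in the design. Both regions were picked because they were called, so it cannot show whether they changed alike. Of the 608 called regions by the authors' deposited table, 74 (12.2%) had another called region within 10 kb. Nearby, the weak region at 172635823 to 172636877 had 0.89 ± 0.61 at a mean level of 7.10 by the authors' deposited table and was not tested.

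The 2 PDK2 regions downstream of its start had larger fold changes than the start region. In the authors' deposited table the region 5.2 kb downstream of the start (chromosome 17, 50099922 to 50104051) reached 0.68 ± 0.26 (standard error) on the log2 scale. Its mean level was 104 and its adjusted p-value 0.149, and it also overlaps PDK2-AS1. The region 12.4 kb downstream (50107165 to 50109205) had 0.88 ± 0.31 by the authors' deposited table, and 0.110 as its adjusted p-value. Both had an unadjusted p-value under 0.05 by the authors' deposited table, 0.00911 and 0.00440, which the PDK2 start, at 0.326, did not. PDK3 had 1 tested region off its start, 14.0 kb downstream (chromosome X, 24479196 to 24480814), with 0.47 ± 0.36 and an adjusted p-value of 0.437 by the authors' deposited table.

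**Figure D2:**
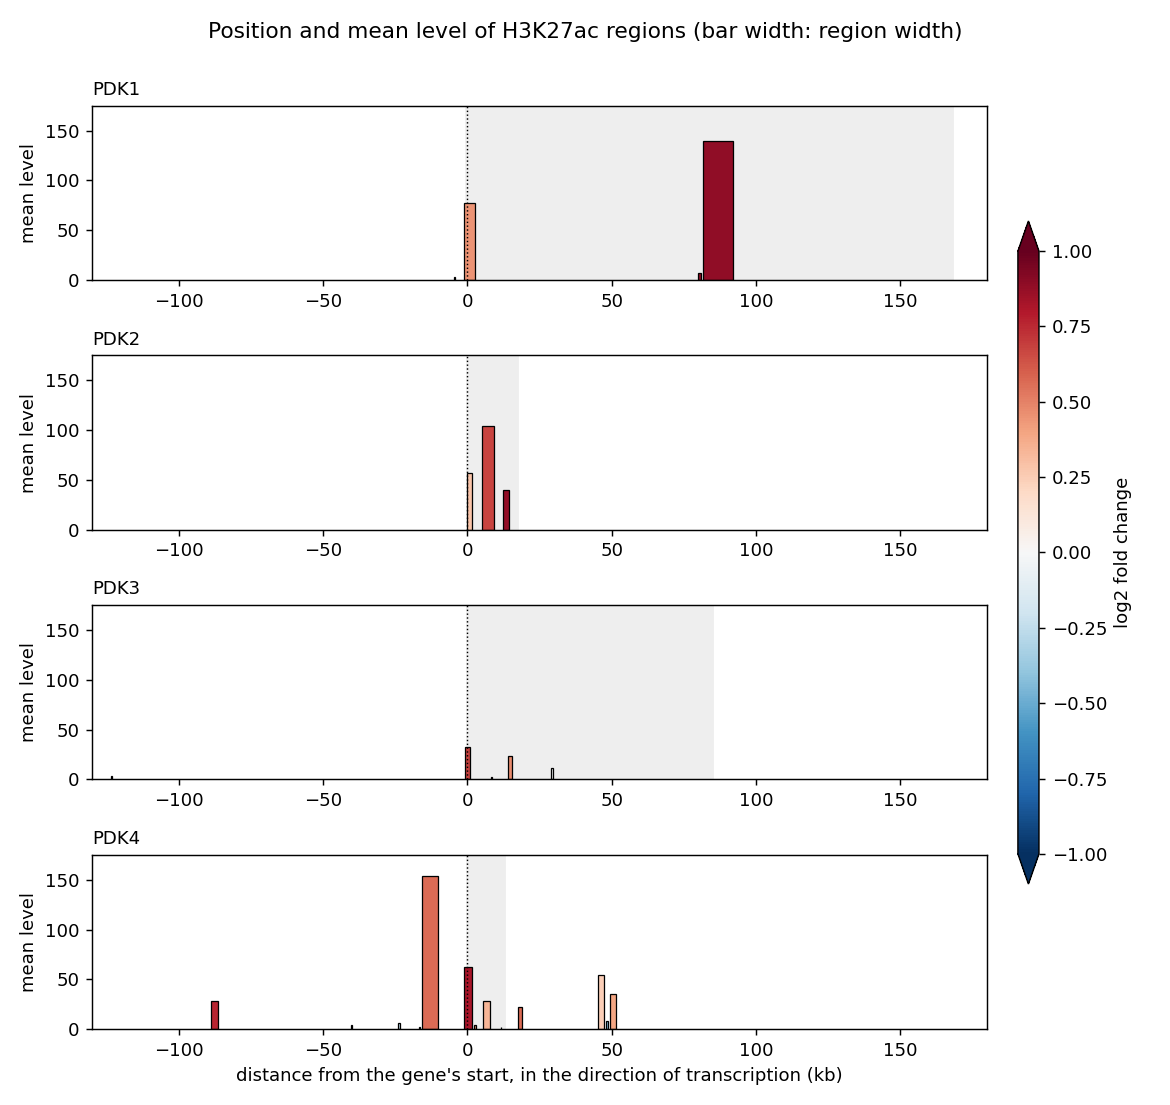
Position of each PDK region from the gene's start in kb, in the direction of transcription, with bar height the mean level, bar width the region's width and colour the log2 fold change. The grey band is the RefSeq gene span. The PDK4 regions reach from 86.3 kb upstream to 49.6 kb downstream with the tallest bar 10.2 kb upstream, and the tallest PDK1 bar lies 81.6 kb downstream.

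Over the family, all 14 tested regions had a positive fold change, beside 87.3% of all tested regions and 98.1% of tested start regions. The 14 ran from 0.25 to 0.89 in log2 fold change by the authors' deposited table. The median of the 14 was 0.57, beside 0.32 over all tested regions. Over all 25 PDK regions, the untested ones included, the median was 0.47, beside 0.28 over all 91107 regions of the authors' deposited table. Of the 14, 12 lay above 0.32, the median of all tested regions. An unadjusted p-value under 0.05 was given to 6 (42.9%), beside 18.4% of all tested regions by the authors' deposited table. The 6 were the PDK4 start, 2 upstream PDK4 regions, 2 PDK2 regions and the PDK1 domain. The 95% intervals of 13 of the 14 include 0.32, the exception being the PDK1 domain. After centring on the median of tested regions, 0 of the 14 passed at an adjusted p-value under 0.05, beside 0.124% of all tested regions, and 1, the PDK1 domain, had an unadjusted p-value under 0.05. The standard errors for this count were those of the authors' DESeq2 fit.

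The 11 untested PDK regions were weak. Their mean levels ran from 2.55 to 11.8 and their log2 fold changes from -0.57 to 1.30 by the authors' deposited table, with standard errors of 0.50 to 1.07. All 5 negative fold changes of the family were among them, 4 at PDK4 and 1 at PDK3, and none had an unadjusted p-value under 0.05 by the authors' deposited table.

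**Figure D3:**
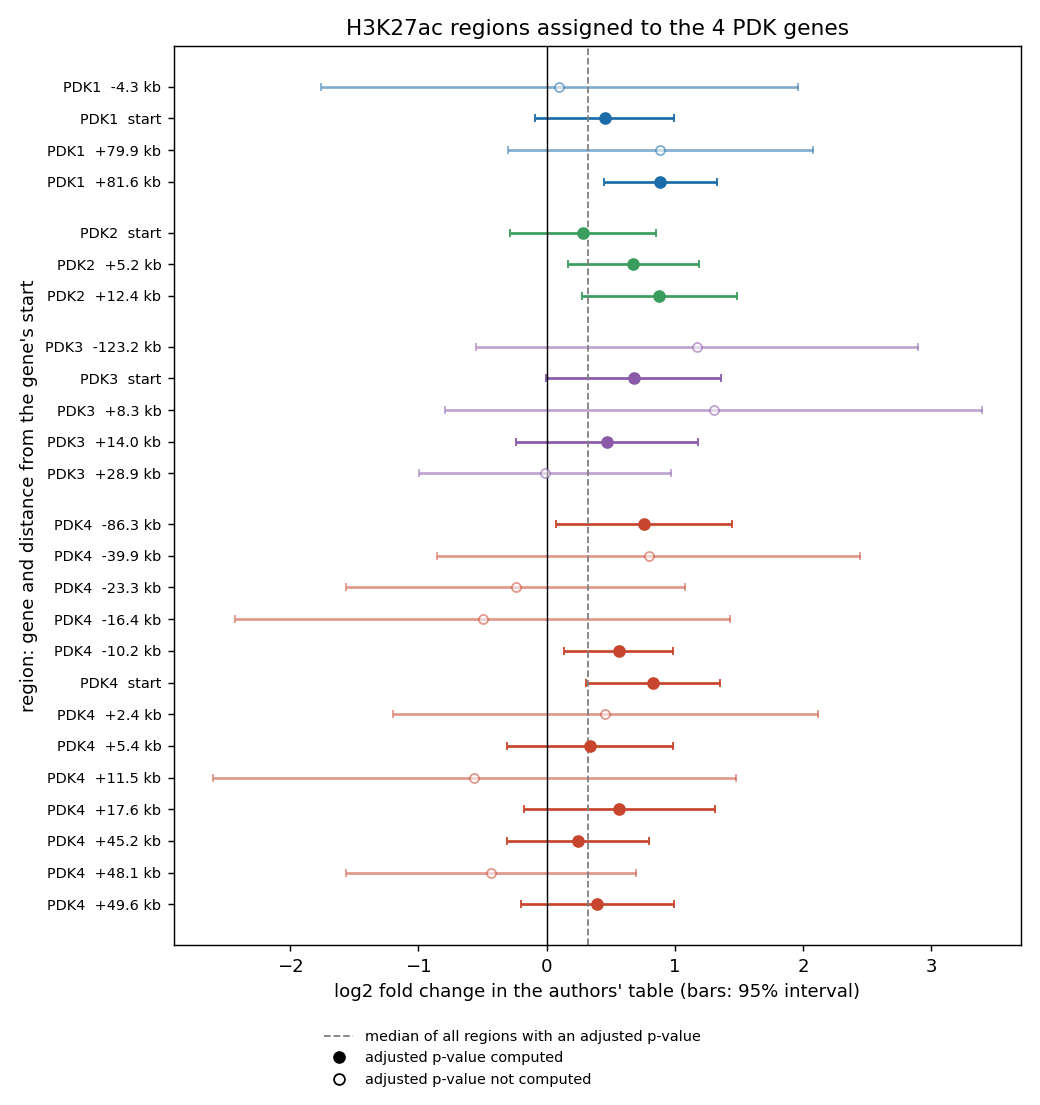
Log2 fold change of all 25 PDK regions with 95% intervals from the authors' standard errors, ordered within each gene by distance from the start. Filled points are the 14 tested regions, all right of 0, where 87.3% of all tested regions fall. Open points are the 11 untested ones, and the dashed line is the median of all tested regions, 0.32.

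PDK4 was then set against each paralog at the start, to ask whether its promoter stood apart within the family. The difference of log2 fold changes, with the standard errors of the authors' deposited table combined, was 0.38 (95% interval -0.38 to 1.13) against PDK1, 0.54 (-0.23 to 1.32) against PDK2 and 0.15 (-0.71 to 1.01) against PDK3. Two-sided normal p-values were 0.329, 0.168 and 0.739, and 0.493, 0.493 and 0.739 after Benjamini-Hochberg adjustment over the 3 pairs. Against the 3 paralog starts pooled by inverse variance, at 0.45 ± 0.17 (standard error), the difference was 0.38 (95% interval -0.25 to 1.00), with a two-sided normal p-value of 0.234. The PDK4 start had the higher value in all 3 pairs, and in none was the difference beyond the errors. The intervals are wide enough to hold both equal change and a difference of 1 on the log2 scale in each pair.

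Away from the starts the sign of these differences was the opposite. The inverse-variance mean of the log2 fold changes of regions not at a start was 0.40 ± 0.11 (standard error) over 12 PDK4 regions, 0.85 ± 0.21 over 3 PDK1 regions, 0.76 ± 0.20 over 2 PDK2 regions and 0.45 ± 0.27 over 4 PDK3 regions. PDK4 minus paralog was -0.45 (95% interval -0.91 to 0.01) for PDK1, -0.36 (-0.81 to 0.09) for PDK2 and -0.05 (-0.62 to 0.52) for PDK3. The p-values were 0.0534, 0.113 and 0.862, or 0.160, 0.170 and 0.862 adjusted over the 3 pairs. No pair passed, and the direction for PDK3 turned to 0.17 with only regions of a mean level of at least 10. Regions of 1 gene share libraries and are not replicates of the treatment, and errors common to the libraries are not in these intervals.

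Within a gene, start minus the other regions was 0.43 (95% interval -0.14 to 1.00) for PDK4 and 0.23 (-0.63 to 1.10) for PDK3. It was -0.40 (-1.07 to 0.28) for PDK1 and -0.48 (-1.16 to 0.21) for PDK2. By these inverse-variance means the larger value lay at the start for PDK4 and PDK3 and off the start for PDK1 and PDK2. For PDK3 this depended on the weighting, since the median off the start was 0.82 against 0.68 at the start. Adjusted over the 4 genes, the p-values were 0.330 for PDK4, PDK1 and PDK2 and 0.599 for PDK3. No difference between a start and the other regions of its gene thus passed at 0.05. This comparison was not in the design. Here too, regions of 1 gene are not replicates, and errors common to the libraries are not in the intervals. The PDK1 mean rested most on its called domain, whose standard error was 0.22 beside 0.61 and 0.95.

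**Figure D4:**
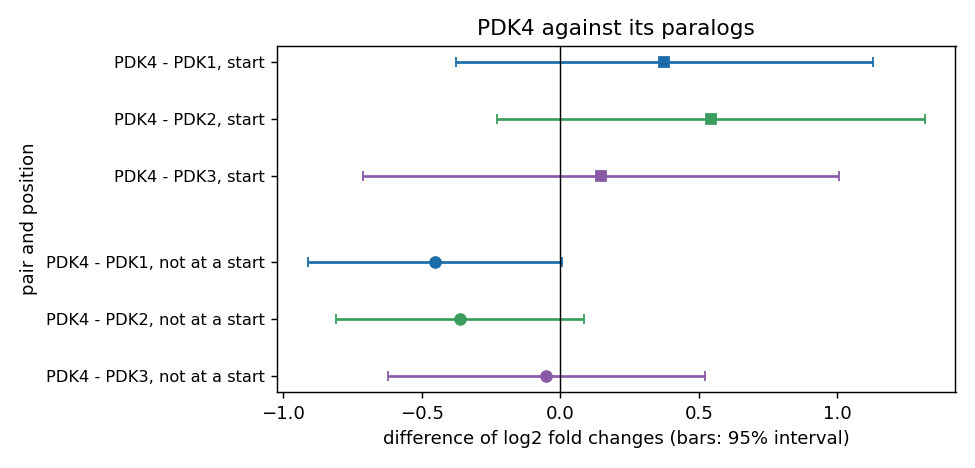
PDK4 minus each paralog in log2 fold change, at the start (squares) and over regions not at a start (circles, inverse-variance means), with 95% intervals. The 3 start differences lie right of 0, the 3 others left of it, and all 6 intervals include 0.

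The surroundings of the 4 starts differed in how many regions were assigned to other genes. Within 100 kb of the PDK4 start region lay 9 regions assigned to other genes, 2 of them tested, with log2 fold changes of 0.35 and 0.43 and 0 called by the authors' deposited table. Around PDK2 lay 12, of which 7 were tested, from 0.14 to 0.78 with a median of 0.56 and 0 called by the authors' deposited table. Around PDK1 lay 6, 2 of them tested, and the RAPGEF4 region was the 1 called. PDK3 had none. No region assigned to another gene lay within 20 kb of any of the 4 start regions. Called regions made up 1.67% of all tested regions, and the tested neighbours are too few to set against that share.

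The enzyme complex that these kinases switch off was examined next. Genes of the complex, its phosphatases and the related branched-chain kinase (PDHA1, PDHB, DLAT, DLD, PDHX, PDP1, PDP2, PDPR and BCKDK) had 36 tested regions, of which 26 were positive and 0 called by the authors' deposited table, beside 87.3% and 1.67% of all tested regions. Of these, 3 positive and 1 negative had an unadjusted p-value under 0.05 by the authors' deposited table, which is 11.1% beside 18.4% of all tested regions, and the median log2 fold change was 0.21 beside 0.32 over all tested regions. The DLAT start, at the gene of the E2 acetyltransferase subunit, had 0.52 ± 0.26 (standard error) with an adjusted p-value of 0.261 by the authors' deposited table. The start of PDP1, a phosphatase gene that counters the kinases, had 0.02 ± 0.22 and an adjusted p-value of 0.964 by the authors' deposited table. PDP1 was chosen after its values were seen, as was its region 106.7 kb from the start, which had 1.04 ± 0.32 and an adjusted p-value of 0.0531 by the authors' deposited table. The negative region, also named after its value was seen, was assigned to PDHX, the gene of the E3-binding protein, 90.6 kb from its start, and had -0.78 ± 0.35 and an adjusted p-value of 0.212 by the authors' deposited table.

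Genes that carry pyruvate or take it elsewhere (MPC1, MPC2, LDHA, LDHB, PC, GPT2, SLC16A1, SLC16A3 and PKM) had 24 tested regions, all positive and 0 called by the authors' deposited table, beside the same 87.3% and 1.67% of all tested regions. Of these, 7, or 29.2%, had an unadjusted p-value under 0.05 by the authors' deposited table, beside 18.4% of all tested regions, and the median log2 fold change was 0.37. The start of SLC16A3, which encodes the lactate exporter MCT4, had 0.83 ± 0.32 (standard error) with an adjusted p-value of 0.144 by the authors' deposited table. At the start of GPT2, a mitochondrial alanine aminotransferase gene, the authors' deposited table gave 0.52 ± 0.24 and 0.220.

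Known regulators of the kinase genes (PPARA, PPARD, PPARG, RXRA, FOXO1, FOXO3, ESRRA, PPARGC1A, HIF1A and NR3C1) had 66 tested regions, 55 positive and 0 called by the authors' deposited table. Of all tested regions, 87.3% were positive and 1.67% called. An unadjusted p-value under 0.05 was given to 11 of the 66 by the authors' deposited table, or 16.7%, which is below the 18.4% of all tested regions, and the median log2 fold change over the 66 was 0.36. The FOXO1 start, at a gene of a forkhead factor known to act on PDK4, had 0.76 ± 0.25 (standard error), with p-values of 0.00218 before and 0.0793 after adjustment by the authors' deposited table. The start of ESRRA, an estrogen-related receptor gene, had 0.66 ± 0.26 and an adjusted p-value of 0.162 by the authors' deposited table. At the start of HIF1A, the hypoxia factor known to act on PDK1, the authors' deposited table gave 0.20 ± 0.19, a value named after it was seen.

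**Figure D5:**
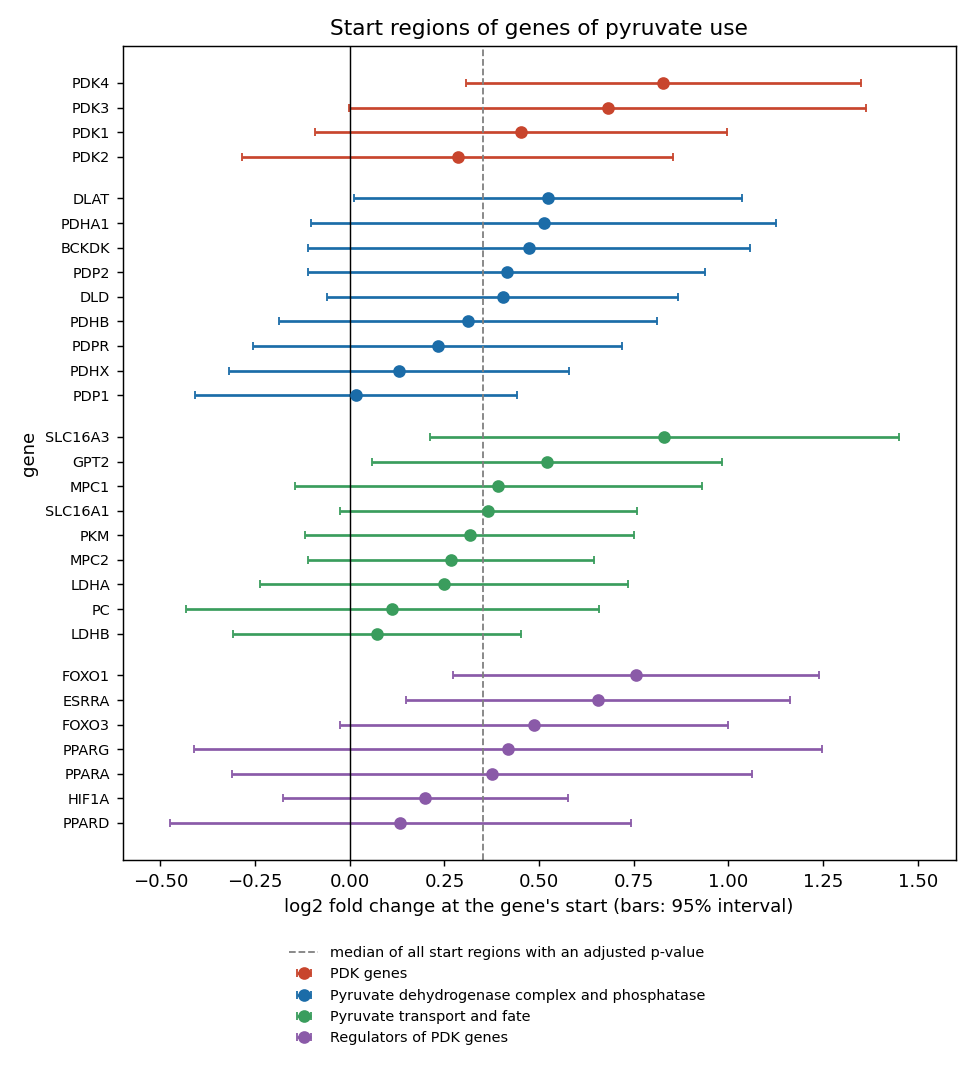
Log2 fold change at the gene's start, with 95% intervals from the authors' standard errors, for the 4 PDK genes and the 3 lists of related genes. RXRA, PPARGC1A and NR3C1 had no region at a distance of 0 and are not drawn, which does not show that their starts are unmarked. RXRA had tested regions 0.4 and 0.3 kb from its start, at 0.95 ± 0.33 (adjusted p-value 0.111 by the authors' deposited table) and 0.49 ± 0.32. The first of these is above every value drawn. PPARGC1A had a tested region 0.5 kb from its start, at 0.38 ± 0.40, and an untested one 0.6 kb away. The dashed line is the median of all tested start regions, 0.35. PDK4 and SLC16A3, both at 0.83, have the largest values drawn, and PDP1, at 0.02, the smallest.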

How the data were processed

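The file analysed was the authors' deposited table of 1 comparison between 2 octanoate and 2 vehicle H3K27ac libraries. The submitters' processing notes name Trim Galore, cutadapt, FastQC, Bowtie2, Picard, MACS2, featureCounts, DESeq2, bedtools 2.29.1 and the build hg38, with no role or order. Per the file headers, the mean level is a normalized signal that the authors computed, and the log2 fold change is the authors' value. Its standard error, the statistic and the distance to the gene (each entered as a score) are the authors', per the file headers. The p-value and adjusted p-value are as deposited. A call is an adjusted p-value of the authors, from DESeq2 by the column names, under 0.05.

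Lines repeating a region were merged. Regions with a distance of 0 were taken to lie over a start. Coordinates are as in the deposited table. Differences between regions used the authors' standard errors, a two-sided normal p-value and Benjamini-Hochberg adjustment (Python 3.11.15, scipy 1.17.1). The code was run on simulated data with independent errors of known size. That run cannot speak to errors shared by regions of the same libraries. RefSeq spans and sequences are of GRCh38.p14, with all 4 genes matched by symbol. No exon annotation was used. The design named a count test in case the table held counts per library, which was not needed.

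The members and lists were chosen with earlier results of these data known. Named genes were all members, list genes with a call or an unadjusted p-value under 0.05 at a start, and neighbours called or within 20 kb. Genes of similar pattern were not named, since that needs values per library. Alternatives were a threshold of 0.01, other adjustments, centring, a level filter, 1 line per gene, leaving out each gene and other ways of pooling.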

Additional observations from a re-analysis of the deposited data

How the results depend on the processing

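The count of 1 called PDK region became 0 at a threshold of 0.01, and 0 when the fold changes were centred on the median of tested regions or of the region's own position class. For the PDK1 domain these centrings gave 0.57 and 0.58, with adjusted p-values of 0.563 and 0.542. The threshold acts by construction, and centring subtracts a shift common to most regions. The count stayed at 1 under adjustment over all distinct regions, where that domain had an adjusted p-value of 0.0366. It was also 1 with a mean level of at least 10, whether the authors' adjustment was kept or repeated over those regions. The PDK4 start passed in none of these.

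With each gene's region of highest mean level in place of its start, PDK4 minus paralog turned to -0.33 for PDK1, -0.11 for PDK2 and -0.12 for PDK3, a comparison that sets upstream or downstream regions against each other in all genes but PDK3. Off the starts, PDK4 minus PDK3 turned from -0.05 to 0.17 with a mean level of at least 10, to 0.034 without the 3 regions inside ASB4 and to 0.0246 within 100 kb. No difference passed at 0.05 after adjustment in any of these, and the cause was not tested. The median log2 fold change over all 25 PDK regions was 0.47, and ran from 0.46 without PDK3 to 0.68 without PDK4 when each gene was left out. It was 0.57 over the 14 tested regions alone. That restriction, the last 2 settings for regions off the starts, and adjustment over regions with a mean level of at least 10 were chosen after seeing the data.

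No paired analysis was possible because the authors' table gives no library its own values, and leaving out each library in turn was not run for the same reason. Regions with a mean level under 10 had large standard errors, which limits what can be seen there.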
